A study of Mus musculus with 23 samples.

Results

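The genes described here are 10 that encode ligands, receptors and signal transducers of growth factor pathways active in connective tissue: Tgfb1, Tgfb2, Tgfb3, Tgfbr1, Tgfbr2, Smad3, Smad7, Igf1, Pdgfra and Pdgfrb. They were named for their pathways, with earlier results of these data known, and are 10 of 18194 genes and 27 of 45101 probe sets measured in the mouse colon. A probe set is a group of short array probes for one transcript, and each gene is given by the probe set annotated to it alone that had the highest mean over 23 arrays. Other probe sets of a gene are given where they bear on its result.

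TGF-beta ligands are secreted in a latent form, which integrins and proteases activate outside the cell. The active ligand binds the type II receptor (Tgfbr2), which recruits and phosphorylates the type I receptor (Tgfbr1). The type I receptor then phosphorylates Smad2 and Smad3, which enter the nucleus with Smad4 and act on target genes such as those of collagens, while Smad7 is induced by the pathway and inhibits it. Igf1 encodes insulin-like growth factor 1, which mesenchymal cells and macrophages can make, and Pdgfra and Pdgfrb encode receptor tyrosine kinases of fibroblasts, pericytes and related cells. In the gut wall these pathways are known for their part in repair and fibrosis.

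The study induced chronic colitis with TNBS, a hapten that inflames the colon when given rectally in ethanol, in BALB/c mice with and without Fn14, the receptor for the cytokine TWEAK. Total RNA of whole colon was hybridised to 1 array per sample, in 4 groups: FN14 KO with TNBS (7 arrays), FN14 KO without TNBS (5 arrays), wild type with TNBS (6 arrays) and wild type without TNBS (5 arrays). A 0.2% TNBS solution in equal volumes of PBS and ethanol was given for 6 weeks, in volumes of 1.0 ul per g of body weight at first and 2.0 at the end, and colons were collected 3 days after the final dose. No label states whether the groups without TNBS received ethanol, how the knockout was made, or whether each array is its own mouse. The p-values therefore cover only the spread among these arrays, which may be technical. Age and sex are not given in the sources used here, and RNA from bulk tissue cannot tell fewer cells of a type apart from less RNA per cell.

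All values are deposited log2 values, whose lowest value of 2.17 acts as a floor, and within a group arrays correlated at r = 0.989 to 0.998. Tnfrsf12a, the gene of Fn14, stood at 4.06 ± 0.11 in KO TNBS, 4.11 ± 0.06 in KO, 7.35 ± 0.51 in WT TNBS and 6.65 ± 0.52 in WT (SD), with no overlap between genotypes. The mean of 10 colonocyte markers lay between 12.59 and 12.96 on every array, and none of these markers was at the floor. Lists of genes from other tissues varied widely between arrays. The mean of 11 skeletal muscle markers ran 4.82 to 8.24 in KO TNBS, 5.52 to 8.10 in KO, 3.12 to 6.99 in WT TNBS and 3.03 to 4.76 in WT, and that of 11 squamous epithelium markers 4.26 to 8.37, 3.06 to 6.12, 4.67 to 7.18 and 2.83 to 4.50 in the same order. The Gapdh 3' minus 5' signal, a measure of RNA quality, was 0.943 ± 0.031 in KO TNBS, 1.01 ± 0.05 in KO, 1.06 ± 0.072 in WT TNBS and 1.04 ± 0.038 in WT (SD, log2).

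Promoter sequences of 4 genes that passed a test below are shown as the 250 bases before the RefSeq start (GRCm38.p6), 5' to 3' on the gene's strand. Capitals mark matches on either strand to 3 short motifs: CAGAC, which Smad proteins can bind, GGGCGG, the GC box, and TGANTCA. The last is a loose pattern for the AP-1 site, in which N is any base. Igf1 is at chr10:87860861-87861110 on the plus strand, Tgfb1 at chr7:25686752-25687001 on the plus strand, Tgfbr2 at chr9:116175364-116175613 on the minus strand and Pdgfra at chr5:75152001-75152250 on the plus strand.
Igf1: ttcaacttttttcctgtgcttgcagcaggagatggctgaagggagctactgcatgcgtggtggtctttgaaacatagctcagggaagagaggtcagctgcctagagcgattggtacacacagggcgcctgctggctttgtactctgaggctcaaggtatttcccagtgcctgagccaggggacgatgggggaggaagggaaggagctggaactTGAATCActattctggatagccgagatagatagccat
Tgfb1: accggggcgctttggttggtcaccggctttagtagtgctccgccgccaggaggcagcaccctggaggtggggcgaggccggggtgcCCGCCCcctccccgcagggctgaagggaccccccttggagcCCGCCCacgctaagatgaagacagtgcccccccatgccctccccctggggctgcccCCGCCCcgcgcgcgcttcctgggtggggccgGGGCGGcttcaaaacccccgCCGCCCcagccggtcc
Tgfbr2: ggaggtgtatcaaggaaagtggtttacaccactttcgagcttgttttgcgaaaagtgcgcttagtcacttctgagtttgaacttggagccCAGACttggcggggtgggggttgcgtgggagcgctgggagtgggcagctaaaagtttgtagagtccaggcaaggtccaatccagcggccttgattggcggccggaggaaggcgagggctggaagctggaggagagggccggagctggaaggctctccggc
Pdgfra: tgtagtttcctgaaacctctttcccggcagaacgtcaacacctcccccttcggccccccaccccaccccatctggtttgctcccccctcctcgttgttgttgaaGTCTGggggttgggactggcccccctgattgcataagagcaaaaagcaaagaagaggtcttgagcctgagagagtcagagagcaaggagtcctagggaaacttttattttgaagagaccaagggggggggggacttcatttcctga

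The Igf1 window held 1 match to TGANTCA, a pattern present in 6.75% of all 32851 promoter windows of this length. The match had A at N, so it need not be an AP-1 site. The Tgfb1 window held 5 GC boxes, a motif found in 32.7% of windows, and had a GC content of 75.2%. Tgfbr2 and Pdgfra each held 1 CAGAC, which occurs in 42.2% of windows. Of the 10 genes 7 had a window in the RefSeq table, and among the others CAGAC occurred 2 times before Tgfb2 and 1 time before the second of the Tgfbr1 starts, while the Tgfb2 window also held a TATAAA (12.4% of windows). The GC box occurred 2 times before Smad3 and 2 times before the first Tgfbr1 start. These matches are descriptions of the letters and not of bound sites.

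With TNBS, 5 of the 10 genes passed the test in wild-type colon, where 16.5% of all 18194 genes did (10.2% higher and 6.27% lower): Igf1, Tgfb1, Tgfbr2 and Pdgfrb rose and Smad7 fell. The median log2 fold change of the 10 was 0.21, and that of all genes 0. In the knockout, 1 of the 10 passed, Igf1, which rose, against 8.55% of all genes (4.08% higher and 4.47% lower), and the median of the 10 was 0.10. Groups did not overlap for 2 of the 10 in wild type (10.1% of all genes, 6.99% higher and 3.15% lower) and for 1 of the 10 in the knockout (3.87% of all genes, 1.97% higher and 1.9% lower). All p-values are limma's after Benjamini-Hochberg adjustment over the 18194 genes, with a threshold of 0.05.

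Between genotypes with TNBS, 5 of the 10 genes were lower in the knockout and none was higher, where 10.5% of all genes passed in either direction (3.73% higher and 6.72% lower): Tgfb1, Igf1, Pdgfra, Tgfbr2 and Tgfbr1. The median of the 10 was -0.22, against 0 for all genes, and 1 of the 10 had groups that did not overlap (3.63% of all genes, 0.956% higher and 2.68% lower). Without TNBS, 1 of the 10 passed, Tgfbr1, which was lower in the knockout, where 4.83% of all genes passed (2.92% higher and 1.91% lower), and for 0 of the 10 did the groups stand apart (5.56% of all genes, 3.39% higher and 2.18% lower). A test of the difference between the TNBS effects of the genotypes called 1 of the 10, Tgfb1, against 2% of all genes (0.621% higher and 1.37% lower), and 2 of the 10 had an unadjusted p under 0.05. These comparisons share arrays, so their calls are not independent of each other.

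**Figure D1:**
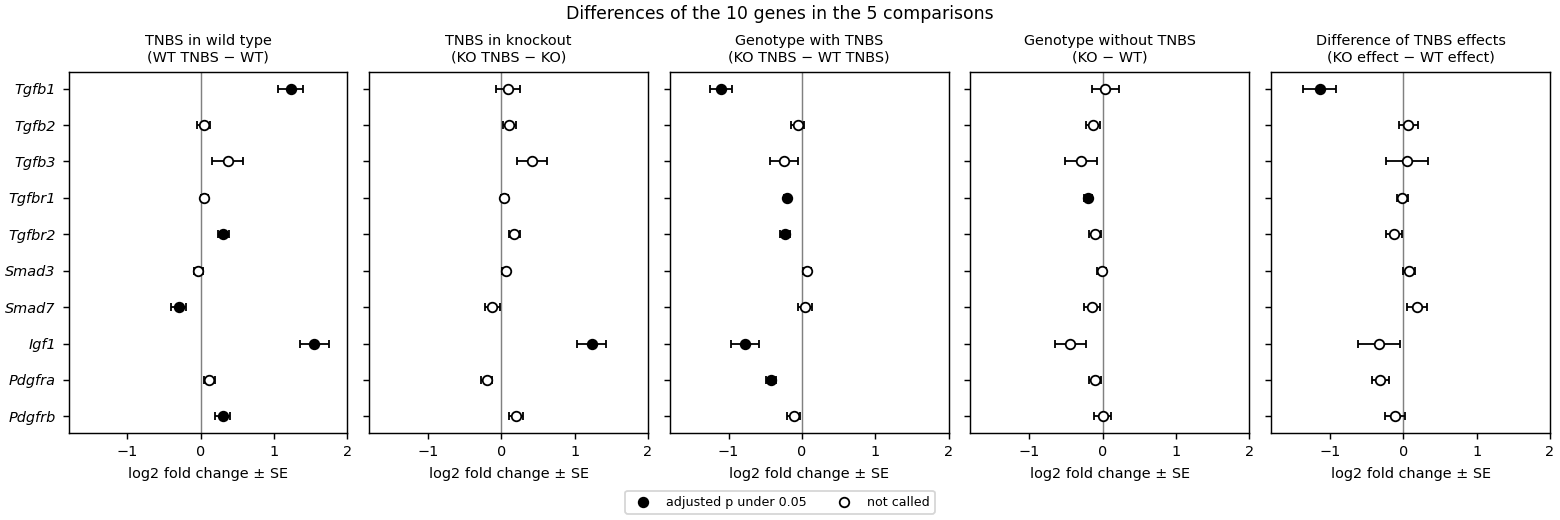
Each panel plots the log2 fold change (x axis, with standard error) of the 10 genes (y axis) in 1 comparison, filled where the adjusted p is under 0.05. The 5 filled points of the genotype comparison with TNBS all lie left of 0, between -1.10 for Tgfb1 and -0.20 for Tgfbr1.

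Among the ligands, Tgfb1, the TGF-beta most studied in inflammation, rose with TNBS in wild type and not detectably in the knockout. Its values were 2.34 to 3.01 with a median of 2.90 in KO TNBS, and 2.90, 2.91, 2.34, 2.48 and 2.90 in KO. They were 3.49 to 4.33 with a median of 3.96 in WT TNBS, and 2.65, 2.90, 2.39, 2.50 and 2.90 in WT. All 6 WT TNBS arrays lay above the other 17 arrays, and the other 3 groups overlapped. The log2 fold change with TNBS was 1.23 ± 0.17 (SE) in wild type, a fold of 2.35 (adjusted p = 4.91e-05). In the knockout it was 0.09 ± 0.16 (adjusted p = 0.902), with a 95% interval of -0.25 to 0.43 that leaves out the size seen in wild type. The value 2.90 recurred in KO TNBS (replicates 5 and 6), KO (replicates 1 and 5) and WT (replicates 2 and 5). Whether the values of these 3 groups hold signal above background was not tested.

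Between genotypes with TNBS, Tgfb1 was 2.15-fold lower in the knockout (log2 -1.10 ± 0.15, adjusted p = 0.000184), while without TNBS the difference was 0.04 ± 0.18 (adjusted p = 1). The difference between the TNBS effects was -1.14 ± 0.23 (95% interval -1.63 to -0.65, adjusted p = 0.0155). Every Tgfb1 value lay in the low range of the array, where fold changes are understated, and its second probe set averaged 2.17 to 2.18 in the groups, at the floor. Tgfb1 thus rests on 1 dim probe set, and a filter that asks for a mean of at least 5 removes it. With TNBS in wild type and in the comparison of genotypes with TNBS, a covariate for the macrophage mean ended the call (0.85, adjusted p = 0.245, and -0.83, adjusted p = 0.0867), but the difference of the TNBS effects kept it (-1.06, adjusted p = 0.0219).

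Igf1 had the largest fold changes of the 10 genes in both TNBS comparisons. It read 8.03 to 9.04 with a median of 8.45 in KO TNBS, and 7.25, 6.79, 7.04, 7.64 and 7.63 in KO. In WT TNBS it read 8.64 to 9.68 with a median of 9.33, and in WT 7.65, 7.60, 7.89, 8.05 and 7.36. Within each genotype every TNBS array lay above every array without TNBS. Igf1 rose 2.34-fold in the knockout (log2 1.23 ± 0.20, adjusted p = 0.000844) and 2.93-fold in wild type (log2 1.55 ± 0.20, adjusted p = 3.29e-05). The difference between these effects was -0.33 ± 0.28, with an interval of -0.92 to 0.26, and did not pass (adjusted p = 0.664).

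With TNBS, Igf1 was 1.70-fold lower in the knockout (log2 -0.77 ± 0.19, adjusted p = 0.0119), and 5 of 7 KO TNBS arrays lay below all 6 WT TNBS arrays. Without TNBS the difference was -0.44 ± 0.21 and did not pass (adjusted p = 0.27). All 4 Igf1 probe sets passed in the same 3 comparisons in a fit over 34958 probe sets. Their fold changes ran from 1.11 to 1.36 on the log2 scale for TNBS in the knockout, from 1.55 to 1.82 for TNBS in wild type and from -1.18 to -0.77 between genotypes with TNBS. The genotype call was lost with a covariate for the Gapdh signal (-0.71, adjusted p = 0.15), the fibroblast mean (-0.54, adjusted p = 0.128) or the macrophage mean (-0.41, adjusted p = 0.586), and both TNBS calls were lost with the macrophage mean (0.82, adjusted p = 0.278, in the knockout and 1.05, adjusted p = 0.218, in wild type).

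Tgfb2 and Tgfb3, which encode the other TGF-beta isoforms, did not pass in any of the 5 comparisons in the main analysis. Tgfb2 averaged 8.36 ± 0.10 in KO TNBS, 8.25 ± 0.24 in KO, 8.42 ± 0.18 in WT TNBS and 8.38 ± 0.04 in WT (SD). Its TNBS effect had an interval of -0.15 to 0.24 in wild type. The probe sets of Tgfb2 disagreed. The dimmest of its 4 averaged 4.37 ± 0.27 in KO TNBS, 4.54 ± 0.26 in KO, 4.92 ± 0.14 in WT TNBS and 4.39 ± 0.09 in WT (SD). That probe set rose with TNBS in wild type (0.53 ± 0.12, adjusted p = 0.00751 over probe sets), was lower in the knockout with TNBS (-0.55 ± 0.11, adjusted p = 0.00451) and passed for the difference of effects (-0.70 ± 0.17, adjusted p = 0.0481). Between genotypes with TNBS the remaining Tgfb2 probe sets gave -0.20 (adjusted p = 0.135) and -0.32 (adjusted p = 0.0918), which did not pass. With the mean of all its probe sets, Tgfb2 was lower in the knockout with TNBS and passed (-0.28, adjusted p = 0.0201). Tgfb3 read 5.56 to 6.04 in KO TNBS, 5.09 to 5.79 in KO, 5.35 to 6.75 in WT TNBS and 5.53 to 5.86 in WT. Its TNBS effects were 0.42 ± 0.20 in the knockout and 0.37 ± 0.21 in wild type (adjusted p = 0.22 and 0.26), with widely spread WT TNBS arrays.

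**Figure D2:**
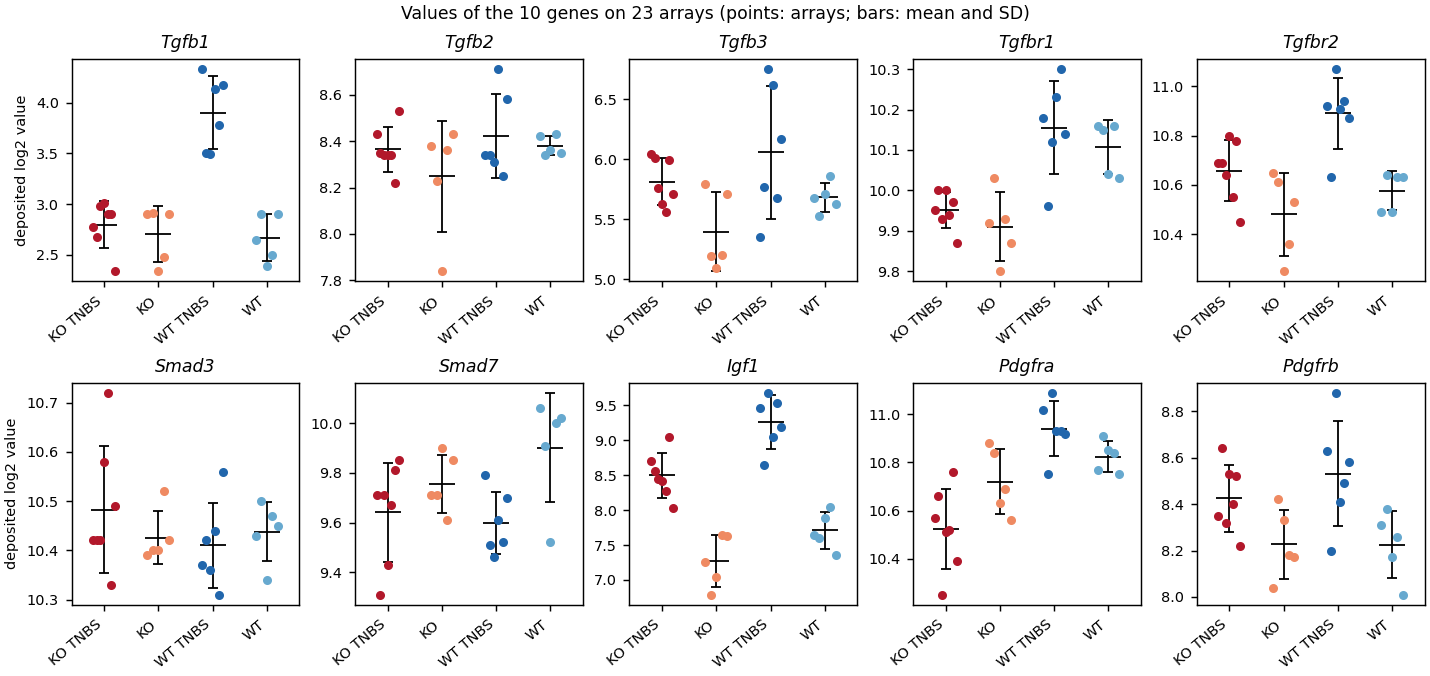
Each panel plots the deposited log2 value (y axis, scaled per gene) of 1 gene on every array (points) in the groups KO TNBS, KO, WT TNBS and WT, with mean and SD (bars). In the Tgfb1 panel the 6 WT TNBS points (3.49 to 4.33) stand above all others, while in the Igf1 panel both TNBS groups stand above their groups without TNBS.

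Tgfbr2, the receptor that binds the ligand first, rose with TNBS in wild type by a small amount. Its values were 10.45 to 10.80 with a median of 10.69 in KO TNBS, and 10.65, 10.61, 10.25, 10.36 and 10.53 in KO. They were 10.63 to 11.07 with a median of 10.92 in WT TNBS, and 10.49, 10.64, 10.49, 10.63 and 10.63 in WT. Of 6 WT TNBS arrays 5 lay above every WT array, and the log2 fold change was 0.31 ± 0.08 (1.24-fold, adjusted p = 0.0101). In the knockout the effect was 0.18 ± 0.08 (adjusted p = 0.163), and the difference between the effects, -0.13 ± 0.11, did not pass (adjusted p = 0.653). Between genotypes with TNBS, Tgfbr2 was 1.17-fold lower in the knockout (log2 -0.23 ± 0.07, adjusted p = 0.0476), a call that was lost when any 1 of 16 of the 23 arrays was left out (adjusted p up to 0.109, without WT TNBS replicate 3). It held without KO replicate 1, 2, 3 or 4, KO TNBS replicate 4 or 6, or WT TNBS replicate 2. It was also lost with the compared groups alone (-0.23, adjusted p = 0.0755), the mean of all probe sets (-0.08, adjusted p = 0.0622), quantile normalization (-0.22, adjusted p = 0.0633) and median centring (-0.14, adjusted p = 0.0632). The Gapdh signal (-0.24, adjusted p = 0.226) and the fibroblast mean (-0.06, adjusted p = 0.451) as covariates ended it too. The other Tgfbr2 probe sets lay near the floor. The wild-type call was lost with the squamous mean (0.16, adjusted p = 0.23) or the fibroblast mean (0.07, adjusted p = 0.462) as a covariate and with each array centred on its median (0.14, adjusted p = 0.0596). The squamous mean did not overlap between WT TNBS and WT. With the macrophage mean as a covariate the sign turned in wild type (-0.09, adjusted p = 0.777) and between genotypes (0.06, not passing).

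Tgfbr1, the kinase that phosphorylates Smad2 and Smad3, was lower in the knockout with and without TNBS. It read 9.87 to 10.00 with a median of 9.95 in KO TNBS, against 9.96 to 10.30 with a median of 10.16 in WT TNBS. Without TNBS it read 9.92, 10.03, 9.80, 9.93 and 9.87 in KO, against 10.16, 10.15, 10.04, 10.16 and 10.03 in WT, where 4 of the 5 KO arrays lay below every WT array. The log2 difference was -0.20 ± 0.04 with TNBS (1.15-fold, adjusted p = 0.00574) and -0.20 ± 0.05 without it (adjusted p = 0.0307). TNBS effects on Tgfbr1 were 0.04 ± 0.05 in the knockout and 0.05 ± 0.05 in wild type, and neither passed. A dimmer Tgfbr1 probe set averaged 3.35 ± 0.36 in KO TNBS, 3.75 ± 0.13 in KO, 4.08 ± 0.43 in WT TNBS and 4.72 ± 0.67 in WT (SD), and the third lay at the floor. The genotype differences of the dimmer set were -0.73 ± 0.24 with TNBS (adjusted p = 0.058 over probe sets) and -0.97 ± 0.27 without it (adjusted p = 0.0512), and neither passed. The call with TNBS was lost with the Gapdh signal (-0.15, adjusted p = 0.18), the fibroblast mean (-0.15, adjusted p = 0.0746) or the macrophage mean (-0.12, adjusted p = 0.429) as a covariate, and with median centring (-0.11, adjusted p = 0.0604).

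The Tgfbr1 call without TNBS was lost with the skeletal muscle mean as a covariate (-0.23, adjusted p = 0.165), and that mean did not overlap between the genotypes without TNBS. It was also lost without KO replicate 3 (-0.17, adjusted p = 0.0775), 4 (-0.20, adjusted p = 0.0563) or 5 (-0.19, adjusted p = 0.0601), and without WT replicate 1 (-0.18, adjusted p = 0.0782), 2 (-0.19, adjusted p = 0.0677) or 4 (-0.18, adjusted p = 0.0681).

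Pdgfra, the receptor found on many fibroblasts of the gut wall, was lower in the knockout with TNBS. Its values were 10.25 to 10.76 with a median of 10.52 in KO TNBS, against 10.75 to 11.09 with a median of 10.93 in WT TNBS. Of 7 KO TNBS arrays 6 lay below every WT TNBS array, and the log2 difference was -0.42 ± 0.07 (1.33-fold, adjusted p = 0.00103). Without TNBS it read 10.88, 10.84, 10.63, 10.69 and 10.56 in KO, against 10.77, 10.91, 10.85, 10.84 and 10.75 in WT, and the difference of -0.10 ± 0.08 did not pass (adjusted p = 0.587). The TNBS effect was -0.20 ± 0.08 in the knockout (adjusted p = 0.116) and 0.12 ± 0.08 in wild type (adjusted p = 0.371), and the difference between these effects, -0.31 ± 0.11, did not pass (adjusted p = 0.141). With the mean of the gene's 3 probe sets in place of the brightest, that difference was -0.48 and passed (adjusted p = 0.0115), as did the TNBS effects of -0.28 in the knockout (adjusted p = 0.00895) and 0.20 in wild type (adjusted p = 0.037). The knockout effect also passed with median centring (-0.22, adjusted p = 0.042) and with the fibroblast mean as a covariate (-0.32, adjusted p = 0.0298). The genotype call with TNBS was lost with the macrophage mean as a covariate (-0.22, adjusted p = 0.284), and neither of the other Pdgfra probe sets passed it (-0.30, adjusted p = 0.168, and -0.41, adjusted p = 0.117 over probe sets).

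Pdgfrb, which marks pericytes among other cells, rose 1.23-fold with TNBS in wild type (log2 0.30 ± 0.10, adjusted p = 0.0483). It read 8.20 to 8.88 with a median of 8.54 in WT TNBS, and 8.31, 8.38, 8.17, 8.26 and 8.01 in WT, and 5 of the 6 WT TNBS arrays lay above every WT array. In the knockout it read 8.22 to 8.64 with a median of 8.40 with TNBS, and 8.04, 8.42, 8.33, 8.18 and 8.17 without it, an effect of 0.20 ± 0.10 that did not pass (adjusted p = 0.26). The wild-type call was lost when any 1 of 16 of the 23 arrays was left out (adjusted p up to 0.129, without WT replicate 5), and held without KO replicate 1 or 2, KO TNBS replicate 2 or 7, WT replicate 2, or WT TNBS replicate 2 or 4. It was also lost in 9 of 17 other alternatives, among them each of the 5 covariates. The second Pdgfrb probe set gave 0.15 ± 0.07 in wild type and did not pass (adjusted p = 0.173 over probe sets).

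Smad3 and Smad7 carry and restrain the signal inside the cell. Smad3 averaged 10.48 ± 0.13 in KO TNBS, 10.43 ± 0.05 in KO, 10.41 ± 0.08 in WT TNBS and 10.44 ± 0.06 in WT (SD). It passed in no comparison, with intervals for the TNBS effect of -0.05 to 0.17 in the knockout and -0.14 to 0.09 in wild type. With median centring, which moved the median of all genes by -0.169 for TNBS in wild type, the Smad3 effect there was -0.20 and passed (adjusted p = 0.0222). Its other probe sets, with group means of 2.18 to 2.97, passed in no comparison. Smad7 read 9.46 to 9.79 with a median of 9.57 in WT TNBS, and 10.06, 9.91, 9.52, 10.00 and 10.02 in WT. Of the 5 WT arrays 4 lay above every WT TNBS array and replicate 3 lay among them. Smad7 fell 1.23-fold with TNBS in wild type (log2 -0.30 ± 0.10, adjusted p = 0.0499). In the knockout it read 9.31 to 9.85 with a median of 9.71 with TNBS, and 9.71, 9.71, 9.90, 9.61 and 9.85 without it, an effect of -0.12 ± 0.10 that did not pass (adjusted p = 0.587).

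The Smad7 call sat at the threshold. It was lost when any 1 of 18 of the 23 arrays was left out (adjusted p up to 0.134, without WT replicate 1), and held without KO TNBS replicate 2, 4 or 7, WT TNBS replicate 1 or WT replicate 3, the last giving -0.40 (adjusted p = 0.0067). Of 17 other alternatives 6 ended it, among them the squamous mean as a covariate (-0.27, adjusted p = 0.248). That mean did not overlap between WT TNBS and WT. The second Smad7 probe set gave -0.03 ± 0.04 in wild type (adjusted p = 0.715 over probe sets). It read 9.58 on every WT TNBS array and on every WT array but replicate 4 (9.74). A probe set that hardly varied cannot decide whether Smad7 fell.

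**Figure D3:**
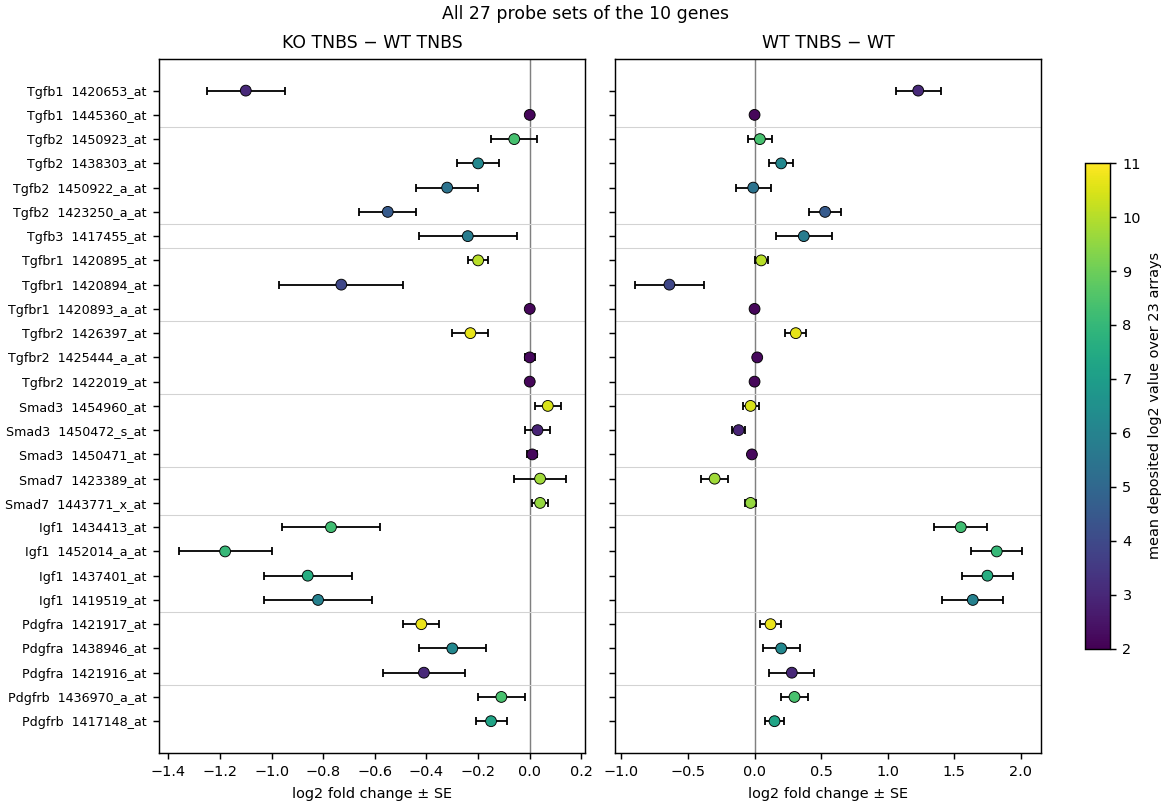
The log2 fold change with standard error (x axis) is drawn for each of the 27 probe sets (y axis), coloured by mean deposited log2 value, for KO TNBS minus WT TNBS (left) and WT TNBS minus WT (right). The 4 Igf1 probe sets lie together in both panels, from -1.18 to -0.77 and from 1.55 to 1.82, while those of Tgfb2 run from -0.55 to -0.06 on the left.

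Other genes of the pathways were counted from lists that leave out the 10 genes and that share some members, such as Pmepa1 and Ltbp1. Of 18 measured TGF-beta target genes, 9 rose with TNBS in the knockout and none fell, with a median of 0.40 (4.08% of all genes rose there). In wild type 12 rose and 1 fell, with a median of 0.57 (10.2% and 6.27% of all genes). The 3 with the smallest p in the knockout were Col1a1 (0.93 ± 0.11, adjusted p = 4.48e-05) and Col3a1 (0.43 ± 0.08, adjusted p = 0.00256), which encode fibrillar collagens, and Pmepa1 (0.82 ± 0.12, adjusted p = 0.000393), an antagonist of the pathway that the pathway induces. In wild type they were Fn1, the gene of fibronectin (1.10 ± 0.15, adjusted p = 5.58e-05), Tgfbi, an extracellular matrix protein (0.64 ± 0.10, adjusted p = 0.000241), and Pmepa1 (0.78 ± 0.12, adjusted p = 0.000248).

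Between genotypes with TNBS, 6 of these 18 targets were lower in the knockout and 1 was higher, with a median of -0.34 (6.72% and 3.73% of all genes). Tgfbi (-0.42 ± 0.09, adjusted p = 0.00625) and Tnc, the gene of tenascin C (-0.48 ± 0.10, adjusted p = 0.0042), were lower. Cdkn2b, an inhibitor of the cell cycle, was higher (0.58 ± 0.12, adjusted p = 0.0046). Without TNBS 1 of the 18 was lower in the knockout (1.91% of all genes), Col1a1 (-0.52 ± 0.12, adjusted p = 0.0194). For the difference of the TNBS effects 0 of the 18 passed in limma's test (2 had an unadjusted p under 0.05), with a median of -0.15. Of all genes 2% passed there.

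Of 9 further ligands and activators, 2 rose in the knockout (4.08% of all genes) and 3 in wild type (10.2% of all genes). Itgb8, an integrin subunit that activates latent TGF-beta, averaged 5.72 ± 0.35 in KO TNBS, 5.16 ± 0.29 in KO, 6.10 ± 0.35 in WT TNBS and 4.38 ± 0.29 in WT (SD). It rose in wild type (1.72 ± 0.19, adjusted p = 6.7e-06), was higher in the knockout without TNBS (0.78 ± 0.20, adjusted p = 0.0317) and passed for the difference of effects (-1.16 ± 0.27, adjusted p = 0.0294), with 0.56 in the knockout, which did not pass. Ltbp1, which tethers latent TGF-beta in the matrix, rose in the knockout (0.31 ± 0.08, adjusted p = 0.0149) and in wild type (0.35 ± 0.08, adjusted p = 0.00366). It was lower in the knockout with TNBS (-0.35 ± 0.07, adjusted p = 0.00355) and without (-0.31 ± 0.08, adjusted p = 0.034). Of 6 other receptors and Smads, 1 rose in the knockout (4.08% of all genes), Eng, the gene of endoglin (0.36 ± 0.08, adjusted p = 0.00945). In wild type 2 rose (10.2% of all genes), Eng (0.34 ± 0.08, adjusted p = 0.00804) and Acvrl1 (0.47 ± 0.14, adjusted p = 0.0257). Between genotypes 0 passed with TNBS (10.5% of all genes) or without it (4.83%), while 2 and 1 had an unadjusted p under 0.05.

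Of 11 antagonists and feedback genes, 3 rose in the knockout, where 4.08% of all genes did, and in wild type 5 rose and 3 fell, where 10.2% and 6.27% of all genes did. Between genotypes with TNBS 1 was higher and 1 was lower in the knockout (3.73% and 6.72% of all genes), with a median of -0.19. Without TNBS 0 were higher and 1 was lower (2.92% and 1.91% of all genes), with a median of -0.22. Smurf2, a ubiquitin ligase that marks the receptors for degradation with Smad7, fell in wild type (-0.40 ± 0.08, adjusted p = 0.00102), was higher in the knockout with TNBS (0.25 ± 0.07, adjusted p = 0.0241) and passed for the difference of effects (0.47 ± 0.10, adjusted p = 0.0229). Bgn, the gene of the matrix proteoglycan biglycan, rose in the knockout (0.58 ± 0.14, adjusted p = 0.0162) and in wild type (0.70 ± 0.15, adjusted p = 0.00266).

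In the related BMP branch 1 of 19 genes rose in the knockout, and in wild type 2 rose and 4 fell. The shares that rose were near those of all genes, 4.08% in the knockout and 10.2% in wild type, and 6.27% of all genes fell in wild type. Grem1, an inhibitor of BMP ligands made by stromal cells, rose in the knockout (1.28 ± 0.20, adjusted p = 0.000689) and in wild type (0.90 ± 0.21, adjusted p = 0.00499). Id3, a target of BMP signals, fell in wild type (-0.57 ± 0.13, adjusted p = 0.00418), as did the receptor gene Acvr2a (-0.32 ± 0.05, adjusted p = 0.000251). Between genotypes with TNBS, the receptor gene Acvr1 (-0.67 ± 0.13, adjusted p = 0.00231) and the ligand gene Bmp4 (-0.46 ± 0.14, adjusted p = 0.0331) were lower in the knockout.

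Of 13 other genes of the IGF axis, 3 rose in the knockout and 4 in wild type, and between genotypes with TNBS 3 were lower and 1 was higher in the knockout. Of all genes 4.08% rose in the knockout and 10.2% in wild type, and 6.72% were lower and 3.73% higher between genotypes. Igfbp4, Igfbp5 and Igfbp7 encode proteins that bind insulin-like growth factors. Igfbp4 averaged 10.02 ± 0.34 in KO TNBS, 9.41 ± 0.20 in KO, 10.70 ± 0.31 in WT TNBS and 9.50 ± 0.12 in WT (SD). It rose in the knockout (0.61 ± 0.16, adjusted p = 0.0192) and in wild type (1.20 ± 0.16, adjusted p = 4.47e-05), and was lower in the knockout with TNBS (-0.68 ± 0.15, adjusted p = 0.00563). Igfbp5 (-0.51 ± 0.15, adjusted p = 0.0286) and Igfbp7 (-0.41 ± 0.11, adjusted p = 0.0249) were also lower there. Among 5 PDGF ligands and receptors outside the 10, Pdgfd fell with TNBS in wild type (-0.65 ± 0.15, adjusted p = 0.0066) and Pdgfb was lower in the knockout with TNBS (-0.38 ± 0.11, adjusted p = 0.0308).

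**Figure D4:**
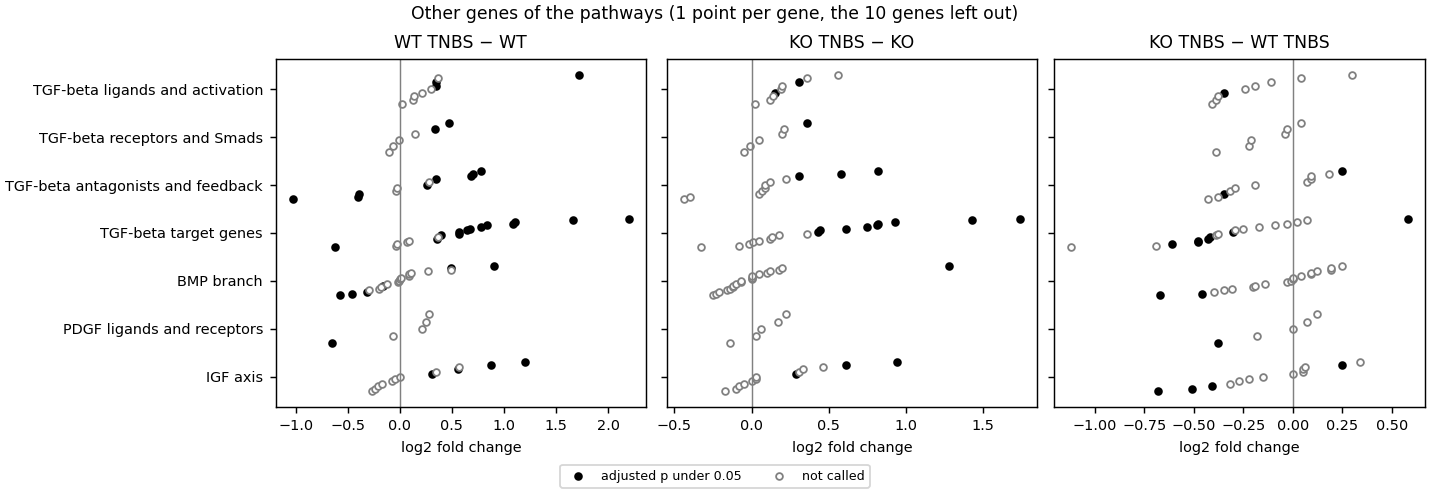
Each point is the log2 fold change (x axis) of 1 gene outside the 10 in a pathway list (y axis), filled where the adjusted p is under 0.05, for WT TNBS minus WT, KO TNBS minus KO and KO TNBS minus WT TNBS. Among the 18 TGF-beta target genes 12 points are filled right of 0 in wild type, 9 in the knockout and 1 between genotypes, where 6 are filled left of 0.

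Markers of several cell types moved with the same comparisons. The mean of 12 macrophage markers was 7.58 to 8.66 in KO TNBS, 6.87 to 7.71 in KO, 8.52 to 9.29 in WT TNBS and 7.68 to 8.0 in WT. Of these, 9 rose with TNBS in the knockout (4.08% of all genes), and 10 rose and 1 fell in wild type (10.2% and 6.27%). Between genotypes with TNBS 10 were lower and 1 was higher in the knockout (6.72% and 3.73%). The mean of 12 fibroblast markers was 9.36 to 9.89 in KO TNBS, 9.01 to 9.61 in KO, 9.69 to 10.27 in WT TNBS and 9.45 to 9.74 in WT. Of these, 5 rose in each genotype and 4 were lower in the knockout with TNBS, against the same shares of all genes. No gene of these lists was at the floor throughout a group.

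The mean of 8 endothelial markers was 5.74 to 6.09 in KO TNBS, 5.36 to 5.88 in KO, 5.98 to 6.35 in WT TNBS and 5.44 to 5.74 in WT. Of them 2 rose in the knockout (4.08% of all genes) and 4 in wild type (10.2%). Between genotypes with TNBS 2 were lower in the knockout (6.72%). The mean of 9 mast cell markers was 6.88 to 8.0 in KO TNBS, 3.18 to 3.59 in KO, 8.28 to 9.16 in WT TNBS and 3.19 to 3.69 in WT, and that of 8 T cell markers 4.79 to 5.70, 4.16 to 4.71, 5.73 to 6.38 and 4.69 to 5.14 in the same order. The pericyte mean (6 genes) was 7.94 to 8.46 in KO TNBS, 7.90 to 8.38 in KO, 8.30 to 8.70 in WT TNBS and 7.99 to 8.24 in WT, and the smooth muscle mean (9 genes) stayed within 11.39 to 11.83 on all arrays. With the macrophage mean as a covariate 0 of the 10 genes passed in limma's test for TNBS in the knockout (3 had an unadjusted p under 0.05), for TNBS in wild type (2) or between genotypes with TNBS (2). With that covariate 56, 83 and 104 of all 18194 genes passed in these comparisons. The part of the endothelial, mast cell, T cell and pericyte markers in the results was not tested.

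**Figure D5:**
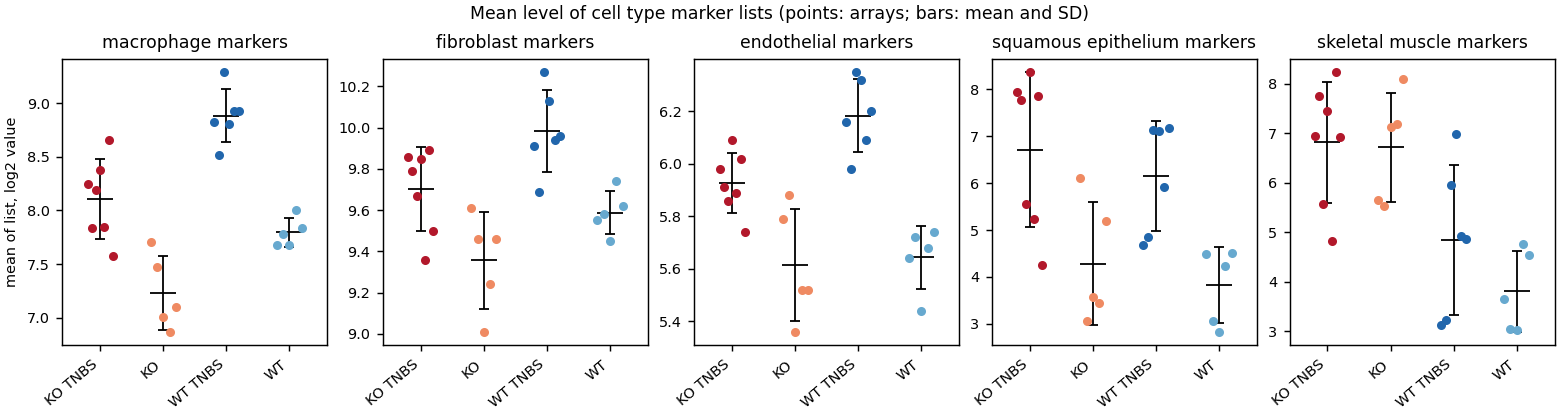
Each panel plots the mean log2 value of 1 marker list (y axis) on every array (points) in the groups KO TNBS, KO, WT TNBS and WT, with mean and SD (bars). The macrophage mean lies at 8.52 to 9.29 in WT TNBS and at 7.58 to 8.66 in KO TNBS, and the skeletal muscle mean lies higher in KO (5.52 to 8.10) than in WT (3.03 to 4.76).

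The genes most like each of the 10 that passed a test were found by the root mean square difference of centred log2 values over 23 arrays, as a description without a test. For Tgfb1, whose SD over the arrays was 0.588, they were Apold1 (0.224), the endothelial gene Pecam1 (0.246) and Rasa4 (0.271). Pecam1 averaged 5.35 ± 0.19 in KO TNBS, 5.24 ± 0.20 in KO, 6.30 ± 0.25 in WT TNBS and 5.55 ± 0.36 in WT (SD). For Igf1, with an SD of 0.826, they were Ccdc80 (0.248), Masp1 (0.277) and Mrc1 (0.335), the last the gene of the mannose receptor of macrophages. Tgfbr2 (SD 0.197) was nearest to Timp2 (0.0763), Vim (0.0864) and Gng10 (0.0889), and Pdgfra (SD 0.206) to Ddr2 (0.101), Wwtr1 (0.118) and Sertad4 (0.118). Tgfbr1 (SD 0.129) was nearest to Rbms1 (0.0846), Ssr3 (0.087) and Igha (0.088), Smad7 (SD 0.199) to Tax1bp3 (0.12), Hipk1 (0.123) and Carmil1 (0.127), and Pdgfrb (SD 0.207) to Pdzd2 (0.131), Lims1 (0.132) and Qk (0.133).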

How the data were processed

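Per the labels' protocols, biotin-labelled RNA from colon was hybridised to 1 array per sample. The authors deposited log2 values for 45101 probe sets on each of 23 arrays. RMA and GCRMA, which correct background, normalize between arrays and summarise probes, are named in the submitters' processing notes, without saying which of them made these deposited log2 values. The values ran from 2.17 to 15.98, with 27.9% at the lowest value, so fold changes of dim genes are understated. The number of arrays limits the precision. No 2 arrays were identical.

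Groups came from the labels. Of the probe sets 34958 were annotated to 1 gene (platform annotation of 2016), 932 to several and 9211 to none. The first kind gave 18194 genes, each as its probe set with the highest mean. With limma's lmFit and eBayes, group means were estimated over all arrays together (residual degrees of freedom: 19), 5 contrasts were tested, and p-values were Benjamini-Hochberg adjusted over all genes, or over 34958 probe sets where the text says so. Called means an adjusted p under 0.05. The 10 genes, the 7 pathway lists, the 13 cell type lists and the tests were chosen with earlier results of these data known. Genes named from pathway lists are up to 3 with the smallest p per list and comparison among those called, with no regard to the sign, and not all of them are printed. The procedure was tested on simulated arrays, with shifts added only to genes whose mean lay above the median of all genes. That test therefore does not bear on the recovery of shifts in dimmer genes. Alternatives were array weights, the trend and robust settings of limma, only the groups being compared, other choices of probe set, filters and floors at 5, other scalings, the replicate number as a block, covariates, and leaving out each array. For TNBS in the knockout 2 of 5 same-numbered pairs had deviations that correlated above 0.1, and at most 3 of 6 did in any comparison. Between genotypes with TNBS these correlations ran from -0.46 to 0.43. So few pairs cannot decide whether the replicate numbers pair the arrays. Analyses used R 4.3.3, limma 3.58.1 and the data.table package (1.17.8), and figures Python 3.11.15 and matplotlib 3.10.9.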

Additional observations from a re-analysis of the deposited data

Results flagged for a closer look

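The TNBS effect on Tgfb1 differed between genotypes by -1.14 on the log2 scale (0.09 in the knockout, 1.23 in wild type, adjusted p = 0.0155 in limma), by a test of the difference itself. It passed in all 37 alternatives that kept the gene, between -1.23 and -0.57 (adjusted p = 0.00902 to 0.041). The gene could not be tested with a filter or a floor at 5, because all its values lie below 5.

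Single arrays stood apart from their group in 2 of the 40 groups of the 10 genes checked, and chance flags about 1 in 20 such groups. Smad3 read 10.52 in KO replicate 4, with the nearest other KO array at 10.42. Smad7 read 9.52 in WT replicate 3, with the nearest other WT array at 9.91. Without that array the fall of Smad7 with TNBS in wild type was -0.40 (adjusted p = 0.0067).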

How the results depend on the processing

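Each result was recomputed under 40 alternatives: 23 that leave out 1 array and 17 others, of which 3 (covariates for the macrophage and fibroblast means, and centring on genes with a mean of at least 5) were chosen after seeing the data. Of the 10 genes, the number called for TNBS in wild type, 5 in the main analysis, was 3 with the compared groups alone or the skeletal muscle mean as a covariate, 2 with the squamous or the fibroblast mean, 0 with the macrophage mean, and 3 to 5 when 1 array was left out. For TNBS in the knockout, 1 became 2 with the mean of all probe sets, median centring or the fibroblast mean and 0 with the macrophage mean. For genotypes with TNBS, 5 became 3 with median centring, 2 with the Gapdh signal or the fibroblast mean and 0 with the macrophage mean. That count was 4 to 5 when 1 array was left out. For genotypes without TNBS, 1 became 0 with the groups alone, the replicate block, the skeletal muscle, macrophage or fibroblast mean, and 0 to 1 when 1 array was left out. For the difference of effects, 1 became 0 with a filter or a floor at 5, which removes Tgfb1, and 2 with the mean of all probe sets or the probe set of highest variance. Signs turned for Tgfb2 in the difference of effects with the probe set of highest variance (-0.70, adjusted p = 0.0417), Tgfbr1 for TNBS in wild type with median centring (-0.12, adjusted p = 0.0302), and Tgfbr2 with the macrophage mean (-0.09 for TNBS in wild type, 0.06 between genotypes with TNBS). The cause of these changes was not tested, and a covariate that ends a call does not show one. The macrophage mean did not overlap between WT TNBS (8.52 to 9.29) and WT (7.68 to 8), and neither did the squamous mean (4.67 to 7.18 and 2.83 to 4.50). In wild type these covariates therefore cannot be told apart from TNBS. The replicate block ended the calls of Pdgfrb for TNBS in wild type (0.29, adjusted p = 0.105), Tgfbr2 between genotypes with TNBS (-0.20, adjusted p = 0.179) and Tgfbr1 without TNBS (-0.20, adjusted p = 0.0529), and no other call of the 10 genes. Median centring moved the median of all genes by -0.169 for TNBS in wild type, where genes at the floor shift together, and by 0.142 for the difference of effects. The share of called genes that were higher was then 11.2% against 62.0% in the main analysis for TNBS in wild type, 70.1% against 35.7% for genotypes with TNBS, 33.7% against 60.4% without TNBS and 80.6% against 31.1% for the difference. Centring on brighter genes gave 22.4%, 78.8%, 47.1% and 88.6% of 8338, 6527, 872 and 5211 calls. Quantile normalization gave 49.7% without TNBS and 41.6% for the difference. Counts over all genes moved by over 1.5 times as follows. For TNBS in wild type 2998 became 11471 with median centring, 1350 with the squamous, 1072 with the fibroblast and 83 with the macrophage mean. For TNBS in the knockout 1556 became 856 with groups alone, 813 with Gapdh, 676 with the fibroblast, 560 with the squamous and 56 with the macrophage mean, and 1014 without KO replicate 3. For genotypes with TNBS 1902 became 1230 with the replicate block, 922 with the fibroblast mean, 738 with Gapdh and 104 with the macrophage mean. Without TNBS 879 became 342 with the macrophage mean, 288 with groups alone, 86 with the skeletal muscle mean, 458 without WT replicate 1 and 484 without KO replicate 4. For the difference 363 became 172 with the replicate block, 547 with median centring, 566 with a floor at 5, 238 without WT replicate 1 and 213 without KO replicate 4. Signal over background limits Tgfb1 and the dim probe sets of the other genes.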
